A study of Mus musculus with 18 samples.

Results

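The Gadd45 stress genes Gadd45a, Gadd45b and Gadd45g were followed in injured embryonic sensory neurons. They were found by their symbols in the GENCODE vM21 annotation and are 3 of the 47643 genes in the counts. The neurons came from dorsal root ganglia (DRG) of CD-1 embryos at e13.5 and were grown as dense spots (eDRG spot cultures) with FDU, which removes dividing cells. Control spots were left uninjured and collected at day 7 in vitro (DIV7). In the other groups a blade cut the axons, and 1 group each was taken at 1, 3, 8, 16 and 24 hours post injury (HPI). The study's methods place the cut itself at DIV7, so injured spots may have been older than control spots by the time since the cut, and age and injury cannot then be told apart. Each of the 6 groups had 3 libraries, 18 in all, and all groups, controls included, shared the strain, the stage and FDU. The cultures hold no target tissue, blood or immune system, so the model shows the response of cut embryonic neurons in a dish.

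Gadd45 proteins are small acidic nuclear proteins without an enzymatic domain, and they act by binding other proteins. They bind and open the kinase MAP3K4, which starts the p38 and JNK arms of MAPK signaling, they bind PCNA, p21 and the CDK1-cyclin B1 complex at cell cycle checkpoints, and they have been tied to active DNA demethylation and repair, in neurons at promoters such as that of Bdnf. Gadd45a is a p53 target and also answers to FOXO factors and to the ATF4-CHOP stress pathway, Gadd45b answers to NF-kB and TGF-beta signaling and to neuronal activity, and Gadd45a is known to rise in adult DRG neurons after a peripheral nerve is cut.

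Counts on genes ranged from 9478891 to 23082327 per library, and levels are given as CPM, the counts scaled to a common library size. The limit of detection of 3 counts came to between 0.13 and 0.316 CPM, and it covers counting error only. The intervals of the folds given below come from edgeR's quasi-likelihood fit, so they also take in the spread between libraries. The 6 sensory neuron markers were present in every library, with a summed level of 4105 to 5452 CPM, so the labelled cell type matched its markers. The sums were at most 10 CPM for satellite glia, 9.83 CPM for fibroblasts, 6.83 CPM for myeloid cells and 4.79 CPM for dividing cells. Those for Schwann and endothelial cells were lower. The neuronal sum was 4105 to 4428 CPM at 16 and 24 HPI and 4788 to 5316 CPM in control, and in bulk RNA fewer cells of a type and less RNA per cell cannot be told apart. At 24 HPI the myeloid sum was 4.66 to 6.83 CPM, against 3.13 to 4.55 CPM in control. That of dividing cells was 2.47 to 4.79 CPM, against 1.52 to 2.45 CPM. The ranges of the other non-neuronal types at 24 HPI overlapped with control. Mitochondrial genes took 17.2 to 24.1% of the counts in the libraries of replicate 1 and 14.9 to 19.8% in the others, and the part of this share in the levels below was not tested. The library of 16 HPI replicate 1 stood apart, with 2.15% of counts on rRNA fragments and 33.2% on no gene, and without it the change of Gadd45a at 16 HPI given below was 0.74 in place of 0.77 (log2).

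The 3 genes lie on different chromosomes of GRCm38. Gadd45a (ENSMUSG00000036390.8) is on the minus strand at chr6:67035096-67037457, Gadd45b (ENSMUSG00000015312.8) on the plus strand at chr10:80930073-80932204 and Gadd45g (ENSMUSG00000021453.2) on the plus strand at chr13:51846678-51848468. Their exons add up to 1764, 1589 and 1173 bases. An antisense long noncoding RNA, E230016M11Rik, shares 337 bases of the Gadd45a exons, chr6:67036599-67036935, and since the sources do not state whether the counting used strand, reads there cannot be told apart. E230016M11Rik averaged 2.25 to 2.84 CPM in the 6 groups and differed from control with an adjusted p under 0.05 at no time point (adjusted p = 0.463 at 8 HPI, edgeR's quasi-likelihood test, Benjamini-Hochberg adjusted).

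The promoters are shown so that the sequences before the 3 starts can be set side by side. Gadd45a and Gadd45g passed as higher at 8 HPI (below), and Gadd45b, on few counts, did not pass. Its log2 change there was 0.88, beside 0.62 for Gadd45g, and a different response of Gadd45b was not shown. Differences between the sequences are thus not tied to a difference in response. Each sequence is the 250 bases before the RefSeq start on GRCm38.p6, read 5′ to 3′ on the strand of the gene, and capitals mark matches to the motifs named below. The windows are chr6:67037408-67037657 for Gadd45a, chr10:80929841-80930090 for Gadd45b and chr13:51846425-51846674 for Gadd45g. The RefSeq starts differ from those of GENCODE, and the windows of Gadd45a and Gadd45b reach into the gene spans given above. Distances of motifs below are to the RefSeq start.
Gadd45a: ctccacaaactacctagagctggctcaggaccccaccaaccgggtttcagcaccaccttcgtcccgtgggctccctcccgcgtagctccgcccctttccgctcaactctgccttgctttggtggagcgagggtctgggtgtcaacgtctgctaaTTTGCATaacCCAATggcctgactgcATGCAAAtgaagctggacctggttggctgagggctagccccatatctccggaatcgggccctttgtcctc
Gadd45b: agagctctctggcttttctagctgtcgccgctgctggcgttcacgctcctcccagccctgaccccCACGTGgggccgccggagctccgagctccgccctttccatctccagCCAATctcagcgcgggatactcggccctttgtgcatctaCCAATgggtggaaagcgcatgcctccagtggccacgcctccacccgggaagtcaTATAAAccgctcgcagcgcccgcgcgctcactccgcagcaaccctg
Gadd45g: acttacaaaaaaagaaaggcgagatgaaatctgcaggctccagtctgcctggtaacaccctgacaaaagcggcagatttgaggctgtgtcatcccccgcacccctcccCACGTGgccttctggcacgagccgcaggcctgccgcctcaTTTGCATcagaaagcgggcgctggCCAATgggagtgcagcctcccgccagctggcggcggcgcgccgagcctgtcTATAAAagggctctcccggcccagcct

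All 3 promoters were richer in G and C, at 59.2%, 65.2% and 62%, than the median of 52.4% over 32851 mouse promoters of the same length. A CCAAT box (CCAAT, either strand, as for all motifs searched) was present in each, and 33.8% of all promoters hold one. The octamer core (ATGCAAA), the element read by POU factors, was present in 4.12% of promoters. Gadd45a held 2 copies, starting 96 and 70 bases before the start, Gadd45g held 1 copy 102 bases before it, and Gadd45b held none. The E-box (CACGTG, in 6.02% of promoters) and the TATA box (TATAAA, in 12.4%) were found in Gadd45b and Gadd45g and not in Gadd45a. Neither the AP-1 site (TGANTCA, in 6.75%) nor the CRE core (TGACGTC, in 2.78%) was found in these windows, and no matches overlapped. These are matches of letters, and binding was not measured.

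Before and after injury Gadd45a was the abundant member, Gadd45g was about in the middle of the expressed genes and Gadd45b was near the limit of detection. Per length (RPKM), Gadd45a was 5.02 ± 1.93 times the level of Gadd45g within a library (SD, n = 18, range 1.73 to 8.52), and 6.2 ± 2.38 times if the shared antisense bases are left out of its length. It was 52.7 ± 25.3 times the level of Gadd45b, and Gadd45g was 11.2 ± 4.78 times the level of Gadd45b. Every library had the same order of the 3 genes. Ranked by RPKM among 13728 tested genes, Gadd45a stood above 80.3% of them in control and 89.8% at 8 HPI, and Gadd45g above 42.9% and 53.3%.

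Gadd45a rose about 2-fold by 8 HPI, was still higher at 16 HPI, and was back near the control level at 24 HPI. In control its level was 15.8, 29.5 and 37.1 CPM in replicates 1, 2 and 3, with a mean of 27.5 ± 10.8 (SD, n = 3). It was 22, 32.9 and 45.7 CPM at 1 HPI, a mean of 33.5 ± 11.9, and 19.7, 33.7 and 38.1 CPM at 3 HPI, a mean of 30.5 ± 9.62. In each of these early groups 1 library, replicate 3, was above the control range. At 8 HPI the level was 40.5, 55.9 and 61.4 CPM, a mean of 52.6 ± 10.8, and at 16 HPI it was 30.1, 51.5 and 60.2 CPM, a mean of 47.3 ± 15.5. At 24 HPI it was 14.1, 32.7 and 31.3 CPM, a mean of 26 ± 10.4. All 8 HPI libraries were above all control libraries, whereas the ranges at 16 HPI and control overlapped, and replicate 1 was the lowest library in each of the 6 groups.

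**Figure D1:**
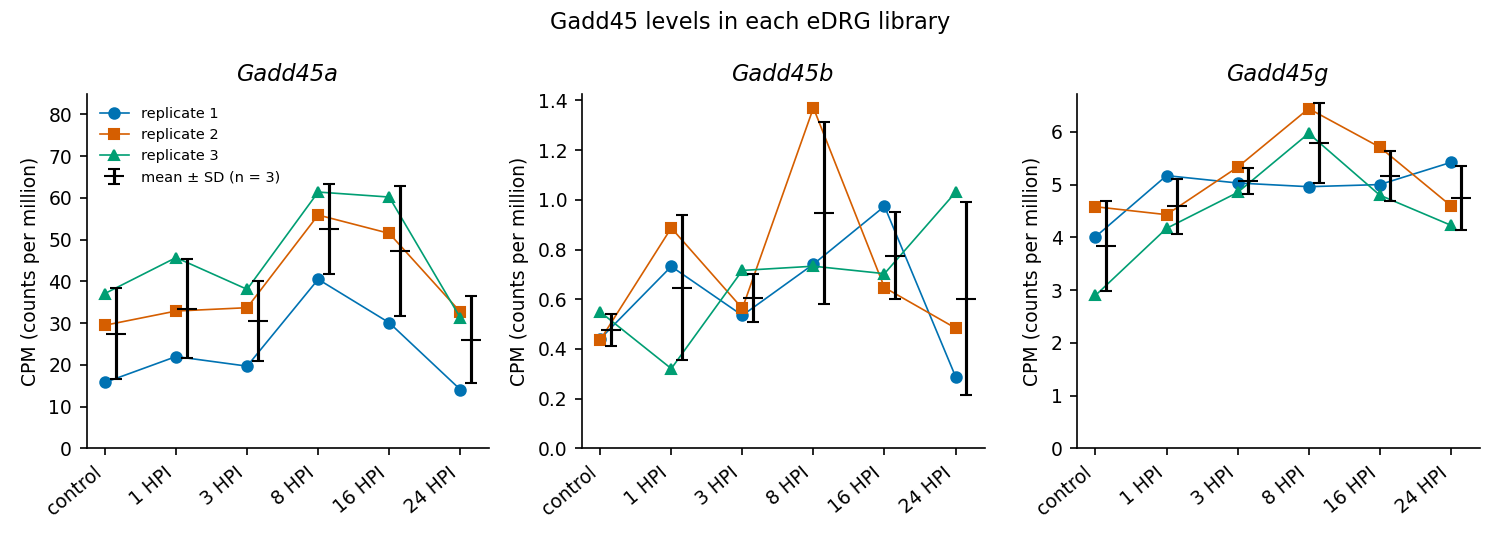
Level of each Gadd45 gene in CPM (vertical axis, from 0, a different scale in each panel) in the 3 libraries of control and of each time point after injury. Lines join libraries with the same replicate number, and black bars give the mean ± SD (n = 3). Gadd45a peaked at 8 HPI in all 3 replicate numbers, from 40.5 to 61.4 CPM, and replicate 1 was lowest throughout, while Gadd45b reached at most 1.37 CPM.

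Time points were compared in 1 fit of all libraries, with the replicate number as a block, over 13771 genes above 1 CPM in at least 3 libraries. A gene passed with an adjusted p under 0.05. By edgeR's quasi-likelihood test, Benjamini-Hochberg adjusted, Gadd45a differed among the 6 groups (adjusted p = 2.051e-07), as did 30.0% of the genes tested. At 8 HPI it rose by 0.99 on the log2 scale (SE 0.10), a fold of 1.99 with a 95% interval of 1.72 to 2.30 (adjusted p = 2.377e-06). Within replicates 1, 2 and 3 its fold was 2.62, 1.88 and 1.66, so it was higher in 3 of 3. At 8 HPI 3.78% of all genes passed as higher, and 0.254% also rose over the 2-fold limit that the study used, a limit of log2 1. Gadd45a was just under it in this fit (0.9915) and just over it by the DESeq2 Wald test (1.0025). With 1 library left out its change ran from 0.85 to 1.10, and it was over the limit without 8 HPI replicate 2, 8 HPI replicate 3 or control replicate 3.

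At 16 HPI Gadd45a was higher by 0.77 (log2, SE 0.10), a fold of 1.70 with a 95% interval of 1.47 to 1.97 and an adjusted p of 1.328e-05 by edgeR's quasi-likelihood test, where 10.7% of all genes passed as higher. It was higher in 3 of 3 replicate numbers, with log2 changes of 1.00, 0.73 and 0.63. At 1 HPI the log2 change was 0.29 (adjusted p = 0.241), at 3 HPI 0.16 (adjusted p = 0.495) and at 24 HPI −0.09 (adjusted p = 0.628, 95% interval of the fold 0.81 to 1.10), none of them passing in edgeR's quasi-likelihood test, Benjamini-Hochberg adjusted. Both higher groups therefore stood between time points that were not distinguished from control. Of all genes, 0.0944% passed as higher and 0.182% as lower at 1 HPI, 0.0436% and 0.145% at 3 HPI, and 5.99% and 9.03% at 24 HPI.

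The steps between time points passed as well. Gadd45a rose by 0.83 (log2) from 3 to 8 HPI (adjusted p = 1.948e-05, edgeR's quasi-likelihood test), where 1.74% of all genes rose. It fell by 0.85 from 16 to 24 HPI (adjusted p = 1.586e-05), where 6.22% of all genes fell. The change of −0.22 from 8 to 16 HPI did not pass (adjusted p = 0.126), so these neighbours in level were not told apart, and neither were control, 3 HPI and 24 HPI. The order of the group means was 8 HPI, 16 HPI, 1 HPI, 3 HPI, control and 24 HPI, and 16 HPI was above the next group, 1 HPI, by 0.48 (adjusted p = 0.00178).

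These calls rest on the comparison within replicate numbers. Without the replicate block the log2 change was 0.95 at 8 HPI (adjusted p = 0.373) and 0.75 at 16 HPI (adjusted p = 0.246), and the steps were 0.80 from 3 to 8 HPI (adjusted p = 0.828) and −0.84 from 16 to 24 HPI (adjusted p = 0.378), all by edgeR's quasi-likelihood test. With mitochondrial genes and rRNA fragments left out before normalization, the change at 8 HPI was 0.99 (adjusted p = 1.073e-06).

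Gadd45g, the member best known from cytokine responses and neuronal differentiation, was higher at 8 HPI by a smaller amount on few counts, 58 to 123 per library. Its level was 4.01, 4.58 and 2.9 CPM in the control libraries, a mean of 3.83 ± 0.856 (SD, n = 3). It was 5.17, 4.43 and 4.17 CPM at 1 HPI and 5.03, 5.33 and 4.85 CPM at 3 HPI. Controls were thus the lowest group, and control replicate 3 was the lowest library. At 8 HPI the level was 4.96, 6.44 and 5.97 CPM, a mean of 5.79 ± 0.754. It was 5, 5.71 and 4.8 CPM at 16 HPI and 5.42, 4.6 and 4.23 CPM at 24 HPI. At 3, 8 and 16 HPI every library was above every control library, and at 1 and 24 HPI the ranges overlapped with control.

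At 8 HPI Gadd45g was higher by 0.62 (log2, SE 0.15), a fold of 1.53 with a 95% interval of 1.24 to 1.90 (adjusted p = 0.0146, edgeR's quasi-likelihood test, Benjamini-Hochberg adjusted), and at 16 HPI by 0.43, a fold of 1.35 (adjusted p = 0.043). Both changes had the same sign in 3 of 3 replicate numbers. The log2 change was 0.27 at 1 HPI (adjusted p = 0.466), 0.42 at 3 HPI (adjusted p = 0.203) and 0.32 at 24 HPI (adjusted p = 0.165, edgeR's quasi-likelihood test), which did not pass. The unadjusted p at 3 HPI, 0.00986, was close to that at 16 HPI, 0.0091 (edgeR's quasi-likelihood test). Only the adjustment over all genes set these time points apart. From 3 to 16 HPI the change was 0.02 (adjusted p = 0.955, edgeR's quasi-likelihood test). No step between neighbouring time points passed, nor did any difference between neighbours in the order of the group means, which was 8 HPI, 16 HPI, 3 HPI, 24 HPI, 1 HPI and control. Over all groups the adjusted p was 0.0468 by edgeR's quasi-likelihood test.

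The calls for Gadd45g were fragile. Without control replicate 3 the log2 change was 0.47 at 8 HPI (adjusted p = 0.121) and 0.29 at 16 HPI (adjusted p = 0.241), and without 8 HPI replicate 3 it was 0.49 at 8 HPI (adjusted p = 0.126, edgeR's quasi-likelihood test). The 16 HPI call was also lost without control replicate 1 (0.47, adjusted p = 0.0812) or any 1 of the 16 HPI libraries (0.41 to 0.45, with adjusted p of 0.0811 to 0.108). Without the replicate block the change was 0.59 at 8 HPI (adjusted p = 0.265) and 0.42 at 16 HPI (adjusted p = 0.245, edgeR's quasi-likelihood test).

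Gadd45b, the member known for rapid induction by neuronal activity, had only 5 to 22 counts per library. In control it was at 0.441, 0.436 and 0.549 CPM, a mean of 0.475 ± 0.0642 (SD, n = 3), and at 1 HPI at 0.732, 0.887 and 0.321 CPM. It was at 0.535, 0.563 and 0.716 CPM at 3 HPI and at 0.741, 1.37 and 0.733 CPM at 8 HPI, where the mean was 0.948 ± 0.366. The libraries of 8 HPI were all above those of control, on 13, 13 and 14 counts. Replicate 2, the highest in CPM, had the fewest counts on genes of all libraries (9478891). Its 95% counting interval was 0.73 to 2.35 CPM. At 16 HPI Gadd45b was at 0.974, 0.647 and 0.703 CPM and at 24 HPI at 0.289, 0.484 and 1.03 CPM. The range at 16 HPI was likewise above control, while that at 24 HPI held both the lowest and one of the highest libraries.

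Gadd45b was over 1 CPM in only 2 libraries and could be tested only in a fit of the 23606 genes with at least 10 counts over all libraries. There its log2 change at the 5 time points, in order, was 0.48, 0.32, 0.88, 0.66 and 0.36, and none passed, with adjusted p of 0.799, 0.851, 0.315, 0.414 and 0.720 by edgeR's quasi-likelihood test, Benjamini-Hochberg adjusted. In that fit 0.275%, 0.182%, 3.97%, 12.0% and 7.64% of genes passed at these time points. At 8 HPI the 95% interval of the fold ran from 1.01 to 3.34, which holds the fold of Gadd45a, and the unadjusted p was 0.0475 in edgeR's quasi-likelihood test, the 1 of the 5 under 0.05.

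**Figure D2:**
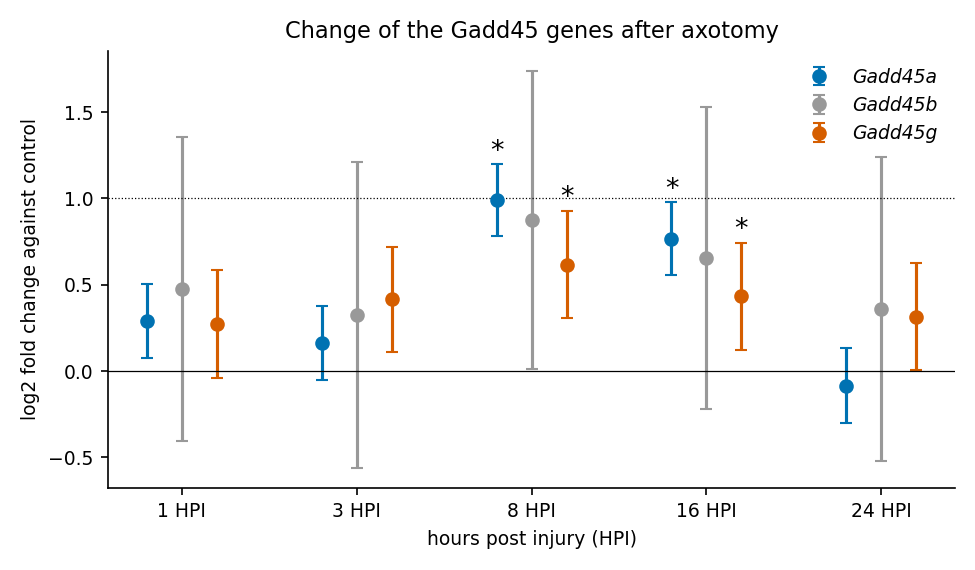
Log2 fold change of each Gadd45 gene against control (vertical axis) at each time point (horizontal axis), from edgeR's quasi-likelihood fit with the replicate block, with 95% intervals. Asterisks mark an adjusted p under 0.05, and the dotted line marks the 2-fold limit of the study. Gadd45a (0.99 and 0.77) and Gadd45g (0.62 and 0.43) passed at 8 and 16 HPI, and the wide intervals are those of Gadd45b. Gadd45g carries no asterisk at 3 HPI, where its change (0.42) was close to that at 16 HPI.

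Whether the members moved differently was tested on their ratio within each library, with time labels permuted within replicate numbers, over 3 pairs. The log2 count ratio of Gadd45a to Gadd45g was 2.77 ± 0.85 in control (SD, n = 3), 3.16 ± 0.17 at 8 HPI and 2.36 ± 0.86 at 24 HPI. Its difference among the groups had p = 0.0273 and an adjusted p of 0.082 (two-sided permutation test, 100000 resamples), which does not pass. At 8 HPI the ratio was above that of the control with the same replicate number in 2 of 3 cases. Neither ratio with Gadd45b passed (adjusted p = 0.979 for both, permutation test), so a difference between the members in their response was not shown.

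The lists of partners through which Gadd45 proteins act were read beside the share of all genes that passed, 3.78% higher and 3.90% lower at 8 HPI and 10.7% higher and 11.5% lower at 16 HPI. Of the 10 genes of the MAPK arm, from Map3k4 to the p38 and JNK kinases, 0 passed against control at any of the 5 time points in edgeR's quasi-likelihood test, with a median log2 change of 0.05 at 8 HPI and −0.02 at 16 HPI, beside 0.00 over all genes at both. At an unadjusted p under 0.05 there were 1, 2 and 4 of the 10 at 8, 16 and 24 HPI, and the DESeq2 Wald test also gave 0 adjusted calls at these time points. Map3k4 itself was at 39.6 CPM in control, 40.8 CPM at 8 HPI and 39.2 CPM at 16 HPI, with log2 changes of 0.05 (adjusted p = 0.703) and −0.04 (adjusted p = 0.72, edgeR's quasi-likelihood test). Only in the steps did 1 gene of the arm pass, Map2k3, a kinase upstream of p38, which rose by 0.39 from 8 to 16 HPI and fell by 0.45 from 16 to 24 HPI.

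Of the cell cycle partners 3 of 4 could be tested, and Cdk1 was too low. At 8 HPI 1 was higher and at 16 HPI 2 were. Ccnb1, cyclin B1, rose at 8 HPI from 0.64 to 1.32 CPM (log2 0.98, adjusted p = 0.0316, edgeR's quasi-likelihood test). DESeq2 gave the same gene a change of 1.00 with no adjusted p. The control mean of Ccnb1 was under the 1 CPM of the filter. It may thus have been tested only through the injured groups, which limits this call. Pcna, the replication and repair clamp, rose at 16 HPI by 0.27 (adjusted p = 0.0163, edgeR's quasi-likelihood test), and Cdkn1a, which encodes p21, rose by 0.34 at 16 HPI (adjusted p = 0.0394). DESeq2's Wald test lost the call for Cdkn1a (adjusted p = 0.143) and not that for Pcna. The change of Cdkn1a at 8 HPI, where Gadd45a was highest, was 0.08 (adjusted p = 0.76, edgeR's quasi-likelihood test). At 24 HPI none of these partners passed.

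In the list for DNA demethylation and excision repair, 13 genes, 1 passed at 8 HPI, as lower, and 3 passed at 16 HPI, 2 of them as higher. These counts are near the shares over all genes. Tet1, a dioxygenase that starts demethylation, fell by 0.23 at 8 HPI (adjusted p = 0.035) and by 0.28 at 16 HPI (adjusted p = 0.00235, edgeR's quasi-likelihood test), and DESeq2's Wald test lost the 8 HPI call (adjusted p = 0.069). The other Tet genes passed in a step, with Tet2 rising by 0.28 and Tet3 by 0.25 from 8 to 16 HPI (adjusted p = 0.0109 and 0.0499, edgeR's quasi-likelihood test). Ercc5, the XPG nuclease that binds Gadd45a, rose by 0.45 at 16 HPI (adjusted p = 4.74e-05) and was the 1 gene still higher at 24 HPI (0.34), and Taf12, a transcription factor subunit that recruits Gadd45a, rose by 0.55 at 16 HPI (adjusted p = 0.00162, edgeR's quasi-likelihood test). Of the genes whose promoters have been described as demethylated with Gadd45, Bdnf rose by 0.33 at 8 HPI and 0.45 at 16 HPI (adjusted p = 0.0304 and 0.000968, edgeR's quasi-likelihood test), from 24.6 to 30.8 and 34.1 CPM, and Fgf1 did not pass at any time point against control. Methylation was not measured.

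Many of the factors described as regulators of Gadd45 genes were higher, most of them at 16 HPI. Of 22 tested (Foxo4 was too low), 8, 14 and 4 were higher at 8, 16 and 24 HPI, where 3.78%, 10.7% and 5.99% of all genes were, and 0, 0 and 1 were lower. The median log2 changes were 0.10, 0.35 and 0.07, beside 0.00 over all genes. The DESeq2 Wald test gave 8, 11 and 3 higher. Jun, the AP-1 factor of the injury response, rose from 39 to 79.1 CPM at 8 HPI (log2 1.03, adjusted p = 1.46e-06, edgeR's quasi-likelihood test). Atf3, a stress factor of injured neurons, rose by 2.29 at 8 HPI and 3.16 at 16 HPI, and Egr1, an activity-induced zinc finger factor, by 2.14 at 8 HPI (adjusted p = 1.82e-06, 4.11e-09 and 2.02e-06, edgeR's quasi-likelihood test). From 8 to 16 HPI, where 7.30% of all genes rose, Atf3 rose by a further 0.87. The change of Gadd45a at that step did not pass, and the difference between these genes was not tested. Trp53, which encodes p53, had a log2 change of 0.18 at 8 HPI (adjusted p = 0.199) and rose by 0.40 at 16 HPI (adjusted p = 0.001, edgeR's quasi-likelihood test). At 24 HPI the higher factors were Trp53 (0.26), Atf3 (1.19), Junb (1.01) and Jund (0.26), and the lower one was Atf4 (−0.30). DESeq2's Wald test lost the call for Trp53 at 24 HPI (adjusted p = 0.0725). From 16 to 24 HPI 9 of the 22 fell and 0 rose, beside 6.22% and 3.59% of all genes.

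Among other p53 targets, 18 of 20 were tested (Pmaip1 and Fas were too low), and 7, 11 and 11 were higher at 8, 16 and 24 HPI, where 3.78%, 10.7% and 5.99% of all genes were, with 0, 0 and 1 lower. The DESeq2 Wald test gave 7, 8 and 9 higher. The median log2 changes were 0.15, 0.40 and 0.25. Btg2, an antiproliferative gene, rose by 1.91 at 8 HPI, Bbc3, which encodes the death protein PUMA, by 0.98, and Plk2, a stress kinase, by 0.69 (adjusted p = 3.6e-06, 5.38e-06 and 1.93e-06, edgeR's quasi-likelihood test). At 16 HPI Trp53inp1, a p53-induced nuclear protein, rose by 1.18 and Mdm2, the ligase that removes p53, by 0.53 (adjusted p = 3.29e-07 and 2.01e-06, edgeR's quasi-likelihood test). Genes of the list were thus still higher at 24 HPI, when Gadd45a was near its control level. This did not hold for every listed gene. Sesn2, the gene most like Gadd45a in pattern (below), had log2 changes of 0.68, 0.46 and −0.24 at 8, 16 and 24 HPI. A difference in course between the listed genes and Gadd45a was not tested. The 1 lower gene at 24 HPI was Plk3 (−0.20).

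The other genes named for growth arrest and DNA damage were also higher, 3, 2 and 1 of the 4 tested at 8, 16 and 24 HPI, beside the same 3.78%, 10.7% and 5.99% of all genes (Ddit4l was too low). The DESeq2 Wald test gave 3, 3 and 0. Ddit3, which encodes the stress factor CHOP (GADD153), rose from 55.9 to 115 CPM at 8 HPI (log2 1.06, adjusted p = 3.37e-06) and by 1.11 at 16 HPI, and at 24 HPI was at 59.9 CPM with a change of 0.08 (adjusted p = 0.698, edgeR's quasi-likelihood test). It fell by 1.04 from 16 to 24 HPI (adjusted p = 5.56e-06, edgeR's quasi-likelihood test). Ppp1r15a, known as GADD34, which restarts protein synthesis after stress, rose by 0.89 and 1.39 at 8 and 16 HPI and was the 1 gene higher at 24 HPI (0.38, a call lost by DESeq2), while Ddit4, an inhibitor of mTORC1, rose by 0.70 at 8 HPI.

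All 8 tested activity-induced genes were higher at 8 and at 16 HPI, and 6 were higher at 24 HPI, where 3.78%, 10.7% and 5.99% of all genes were, and the DESeq2 Wald test gave the same counts (Egr2, Nr4a1 and Npas4 were too low). Btg2 is also in the list of p53 targets, and Egr1 and Junb are also in that of the regulators. Ddit3 and Cdkn1a are likewise shared between lists, so the counts of the lists are not separate results. At 1 and at 3 HPI 3 of the 8 were higher, Fos (2.52 and 2.75), Fosb (2.83 and 2.75) and Arc (1.24 and 1.44), beside 0.0944% and 0.0436% of all genes. No Gadd45 gene passed at these times, and a difference from the 3 genes was not tested. The unadjusted p was 0.0102 for Gadd45a at 1 HPI and 0.00986 for Gadd45g at 3 HPI (edgeR's quasi-likelihood test). DESeq2 gave Fos, Fosb and Arc no adjusted p at 1 and 3 HPI, with log2 changes of 2.44 and 2.67 for Fos, 2.79 and 2.73 for Fosb and 1.24 and 1.44 for Arc. Dusp1, a phosphatase that turns off MAPK, rose by 1.64 at 8 HPI and 1.70 at 16 HPI, and at 16 HPI Arc, a synaptic regulator, rose by 2.34 and Junb, an AP-1 factor, by 1.49 (adjusted p = 4.08e-08, 4.11e-09, 1.31e-07 and 2.69e-05, edgeR's quasi-likelihood test). The control mean of Arc was under the 1 CPM of the filter, so Arc may have been tested only through the injured groups. Listed genes that stayed low were left out, so the filter may have raised the share of higher genes. A comparison with genes of like level was not made. The same filter applied to the other lists.

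**Figure D3:**
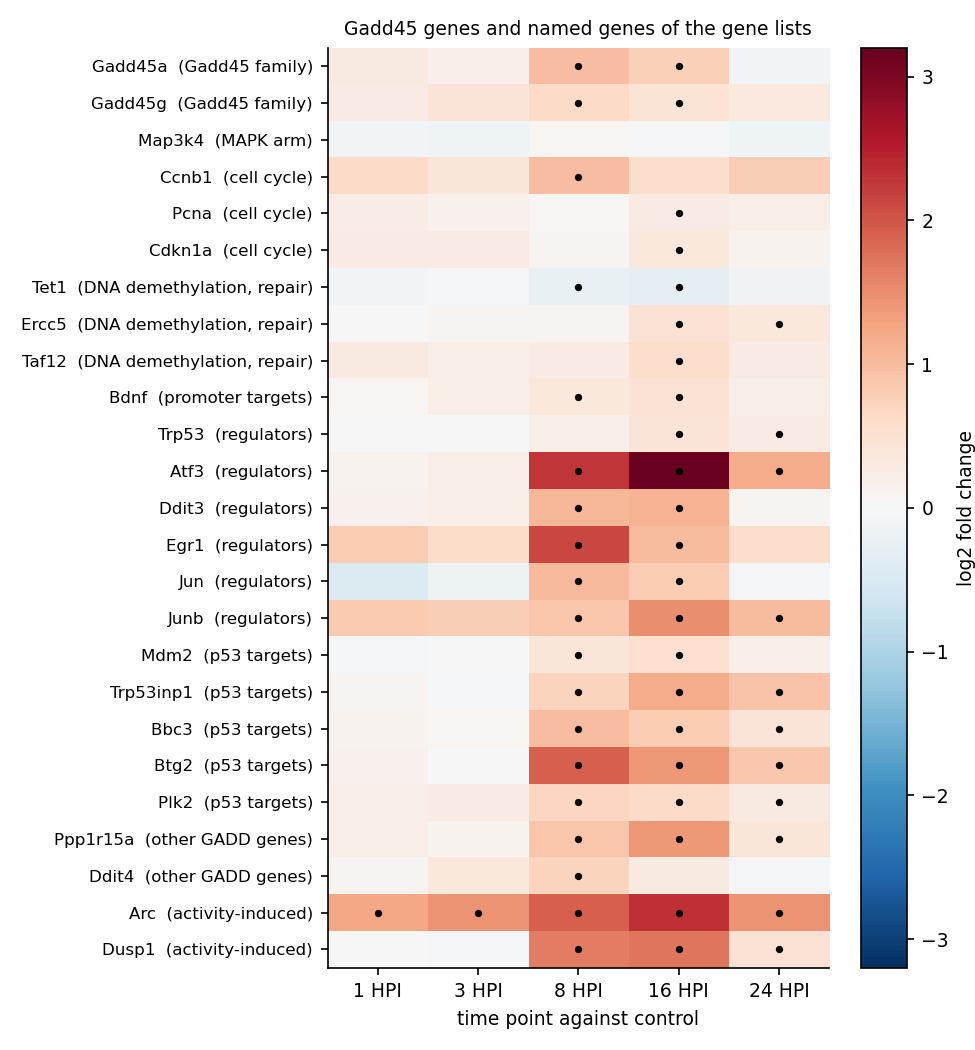
Log2 fold change against control (color) at each time point (columns) of Gadd45a, Gadd45g and the named genes of the lists (rows, with the list in parentheses). Dots mark an adjusted p under 0.05 in edgeR's quasi-likelihood test. Gadd45a and Ddit3 carry dots at 8 and 16 HPI alone, Map3k4 carries none, and Btg2 and Trp53inp1 still carry them at 24 HPI.

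The genes whose pattern was most like that of each member were found by Pearson's r of log2 CPM over the 18 libraries, with the replicate number removed. These values share libraries and depth and are a description. For Gadd45a they were Sesn2 (r = 0.979), a stress sestrin that restrains mTORC1, Stk40, a kinase-like protein (0.962), Hmox1, heme oxygenase (0.962), Nfil3, a bZIP repressor (0.948), and Ifrd1, a transcriptional coregulator (0.947), beside a median of −0.02 over all genes tested. At 8 HPI their log2 changes ran from 0.68 for Sesn2 to 1.07 for Hmox1, and at 24 HPI from −0.24 for Sesn2 to 0.11 for Ifrd1. Each of the 5 was near control at 24 HPI, as Gadd45a was. They were chosen by r over these same libraries, so the like course follows from the choice and is no separate result. Sesn2 was also in the list of p53 targets above.

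For Gadd45g the most alike were the proteasome subunit Psmb4 (r = 0.865), Sybu, a linker of cargo to kinesin (0.864), the proteasome activator subunit Psme3 (0.862), the phosphatase subunit Ppp2cb (0.844) and the nucleolar protein Nifk (0.841). Their log2 changes at 8 HPI were small, from 0.12 for Psmb4 to 0.39 for Sybu. The r between Gadd45a and Gadd45g was 0.493.

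**Figure D4:**
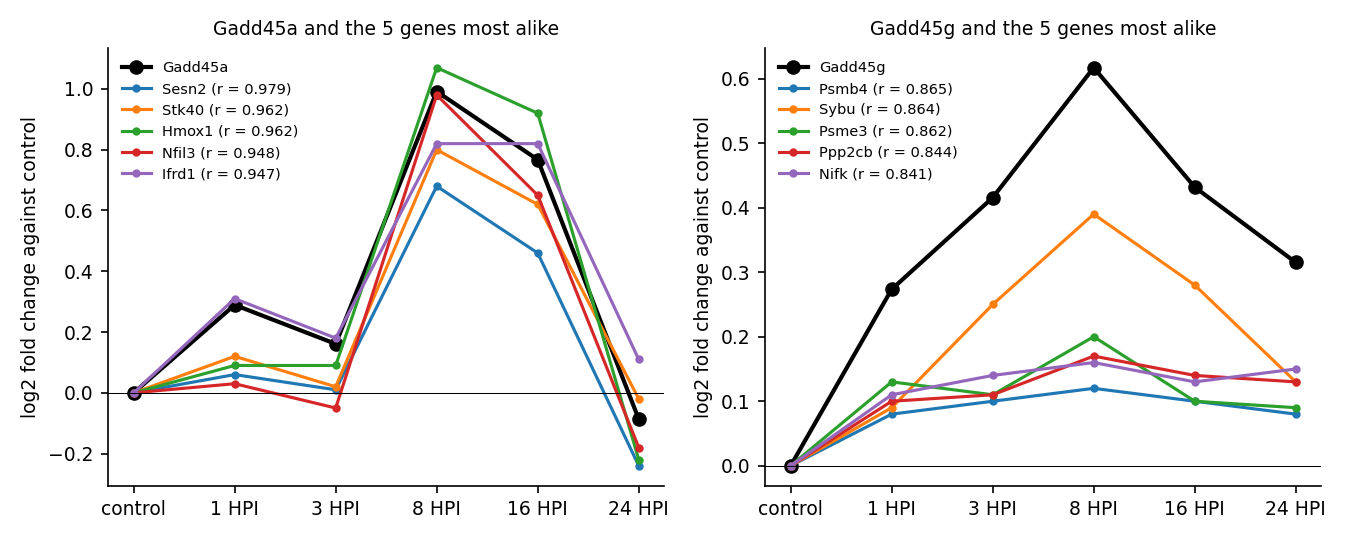
Log2 fold change against control (vertical axis) over the time points (horizontal axis) of Gadd45a (left, black) and Gadd45g (right, black) with the 5 genes most alike to each (colors, with Pearson's r over 18 libraries). The genes alike to Gadd45a were up by 0.68 to 1.07 at 8 HPI and between −0.24 and 0.11 at 24 HPI. Those alike to Gadd45g were up by at most 0.39 at 8 HPI. All were chosen by r over these same libraries, so a like course follows from the choice.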

How the data were processed

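RNA was sequenced from 18 eDRG spot cultures. The authors deposited raw counts per gene for each library, without normalization or batch correction. Per the paper's methods, reads were trimmed with cutadapt, aligned to mm10 with STAR and counted with featureCounts on GENCODE vM20, whereas the submitters' processing notes name HTSeq. Libraries were made after rRNA depletion with a SMARTer kit per the labels, and the strand setting of the counting is not given in the sources used here. Between 25.2% and 33.2% of the counts in a library fell on no gene and were left out. Identifiers were named by GENCODE vM21 on GRCm38 (47224 of 47643 matched), and the promoters came from RefSeq. No 2 libraries were identical. Nothing says that replicates came from separate litters or dissections, so p-values measure the spread between these samples, which may be technical.

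Counts were fitted in R 4.3.3 with edgeR 4.0.16 (TMM, quasi-likelihood, two-sided, Benjamini-Hochberg) with terms for time point and replicate number, on 13771 genes over 1 CPM in at least 3 libraries. Other tools were DESeq2 1.42.0, limma 3.58.1 and Python 3.11.15. Libraries with the same replicate number deviated together from their group means (45 pairs, mean r 0.614, lowest 0.462), so the number was kept as a block. The mean r of −0.306 between different numbers largely follows from taking out the group means and is not separate evidence. Gadd45b missed the filter, and its fit on 23606 genes with at least 10 counts was added after seeing the data. RPKM used the total exon length. Ratios of counts had 0.5 counts added. The alternatives were other size factors and filters, the DESeq2 Wald test (an adjusted p it does not give stays missing), no block, the 2 compared groups alone, mitochondrial genes and rRNA fragments left out, and each library left out in turn. The fits were tested on data simulated with 3-fold changes at 8 HPI and no replicate effect. There 194 of 200 changed genes were recovered at 8 HPI, with 8 false calls. The simulation does not test the block, or changes as small as those of the Gadd45 genes.

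Members and lists were chosen with earlier results of these data known. Named from each list were up to 3 genes with the smallest p at 8 and at 16 HPI among those that passed and moved alike in 3 of 3 replicate numbers, besides Trp53, Map3k4, Cdkn1a and Ddit3 and the 5 genes most alike to Gadd45a and to Gadd45g. Gadd45b was too low for such a ranking. Map2k3, Tet2, Tet3, Fos, Fosb, Jund, Atf4, Plk3, Fgf1, and Arc, Junb and Ercc5 at other time points than the rule gives, were named after their values were seen.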

Additional observations from a re-analysis of the deposited data

Results flagged for a closer look

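The change of Gadd45a differed between neighbouring time points by a test of the difference itself. It rose by 0.83 (log2) from 3 to 8 HPI, in 3 of 3 replicate numbers, with an adjusted p of 1.948e-05 by edgeR's quasi-likelihood test. From 16 to 24 HPI it changed by −0.85, lower in 3 of 3 replicate numbers, with an adjusted p of 1.586e-05 by edgeR's quasi-likelihood test. Groups of 3 libraries are too small for a test of single libraries that stand apart.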

How the results depend on the processing

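The calls for Gadd45a at 8 and 16 HPI, and from 3 to 8 and from 16 to 24 HPI, held under every alternative run except the fit without the replicate block, and those for Gadd45g did not. The cause was not tested. Depth limits Gadd45b, with at most 22 counts in a library of at least 9478891 counts. The ratios between members did not pass under any alternative run, with adjusted p from 0.0806 to 0.984 (permutation test).

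Without the replicate block, log2 changes of Gadd45a were 0.95 at 8 HPI, 0.75 at 16 HPI, 0.80 from 3 to 8 HPI and −0.84 from 16 to 24 HPI, with an adjusted p over all groups of 0.265, and those of Gadd45g were 0.59 at 8 HPI and 0.42 at 16 HPI, with 0.470 over all groups, by edgeR's quasi-likelihood test. The genes passing against control then numbered 0 at 1 HPI (456 at an unadjusted p under 0.05, against 136 adjusted calls by DESeq2 with the block), 1, 61, 706 and 153 at the later time points in order, 44 from 3 to 8 HPI, 207 from 8 to 16 HPI, 111 from 16 to 24 HPI and 535 over all groups. The block gave 38, 26, 1058, 3055, 2068, 317, 2090, 1352 and 4128. In fits of the 2 groups alone Gadd45a passed at 1 HPI (0.29, adjusted p = 0.0155), Gadd45g was lost at 8 HPI (0.62) and 16 HPI (0.43), and 448 and 570 genes passed at 1 and 8 HPI in edgeR's quasi-likelihood test. DESeq2's Wald test gave 136 genes at 1 HPI and 149 at 3 HPI and a change of 0.43 for Gadd45g at 16 HPI, not passing, and its test over all groups an adjusted p of 0.127. With at least 10 counts 65 and 43 genes passed at 1 and 3 HPI, Gadd45g at 16 HPI was at 0.44 and its adjusted p over all groups was 0.0530. With mitochondrial genes and rRNA fragments left out 58 genes passed at 1 HPI.

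With each library left out in turn, the change of Gadd45a ran from 0.85 to 1.10 at 8 HPI, from 0.70 to 0.85 at 16 HPI and from −0.33 to −0.078 from 8 to 16 HPI, where it passed without 8 HPI replicate 3. Gadd45g ran from 0.47 to 0.77 at 8 HPI and from 0.29 to 0.55 at 16 HPI, with an adjusted p over all groups of 0.0184 to 0.196. Gadd45b turned sign at 24 HPI without 24 HPI replicate 3 (−0.39, with a range up to 0.67), from 8 to 16 HPI without 8 HPI replicate 2 (0.058, with a range down to −0.56), and from 16 to 24 HPI without 16 HPI replicate 1 (0.029) or 24 HPI replicate 1 (0.001, with a range down to −1.04). The genes passing ran from 3 to 65 at 1 HPI, 1 to 148 at 3 HPI, 447 to 811 at 8 HPI, 2272 to 2739 at 16 HPI, 1236 to 1554 at 24 HPI, 165 to 249 from 3 to 8 HPI, 1358 to 1744 from 8 to 16 HPI, 621 to 1295 from 16 to 24 HPI and 3327 to 4083 over all groups.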
